A study of Homo sapiens with 24 samples.

Results

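Lipopolysaccharide (LPS), the endotoxin of the outer membrane of gram-negative bacteria, was compared with medium alone in macrophage-like THP-1 cells, a human monocytic leukaemia line that stops dividing and attaches when treated with phorbol 12-myristate 13-acetate (PMA). The comparison covered every named gene with a mean normalized count of at least 10 over the 24 libraries of the series, which left 13900 of 38735 named genes. All cells had been given 100 nM PMA for 24 h. They were then kept in medium for another 24 h, after which the medium was changed and 6 libraries (LPS, letters A to F) received 100 ng/mL LPS for 4 h while 6 (Control, letters A to F) did not. The other 12 libraries came from cells exposed to DCVC, a cysteine conjugate of trichloroethylene, with or without LPS, and entered only the filter on low values and the estimate of the spread. THP-1 is a single line differentiated with a drug and stands in for blood- or tissue-derived macrophages only in part. Whether each library stands for its own culture is not stated, so the p-values measure only how far these libraries spread, which may be technical.

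LPS is detected by Toll-like receptor 4 with its partners CD14 and MD-2, and the adaptors MyD88 and TRIF pass the signal to NF-kB, to mitogen-activated protein kinases and to interferon regulatory factors. Besides cytokines, the response of macrophages is known for a change in how they handle glucose, lipids and amino acids, for exchange of surface receptors, and for induced transcription factors that form later layers of the response. Secreted cytokines such as interferon beta and interleukin 10 act back on the same cells within hours. Many genes of resting macrophages are turned down at the same time.

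Libraries held 19675823 to 27986524 reads on named genes in Control and 19985317 to 30107819 in LPS. The deposited values are read counts divided by a size factor for each library, and on that scale the libraries summed to 21135356 ± 563705 in Control and 29427331 ± 839114 in LPS (mean ± SD, n = 6). A rise of the summed signal can be described on the deposited scale or after rescaling every library to the same total, called equal totals below. Equal totals moved the median log2 change of all tested genes by -0.47, from -0.03 to -0.50. Both results are given for the lists in which that scale moved the share of rises among called members most. In lists given on the deposited scale alone, fewer members rose or more fell on equal totals. Mitochondrially encoded transcripts were 1.351 to 1.879% of the values in Control and 1.599 to 2.208% in LPS. Of 12 macrophage and monocyte markers, all 12 had reads, and their summed level ran from 85230 to 97100 in Control and from 61440 to 67410 in LPS. CD68, which encodes a lysosomal membrane protein of macrophages, was low in both groups, with means of 5.28 and 11.1, and 85.8% of its exon bases overlapped exons of other genes. Erythroid and epithelial markers summed to at most 36.2 in any library, with no read of HBB, ALAS2 or EPCAM in any of the 12. The B cell markers summed to 43.56 to 68.77 in Control and 101.4 to 280.5 in LPS (MS4A1 at 0 throughout), the NK cell markers to 126.7 to 250 and 206.9 to 317.4, the fibroblast markers to 305.8 to 368.4 and 329.1 to 502.3, and the endothelial markers to 172.4 to 299.1 and 117 to 143.2. Of the T cell markers, CD3E and CD2 were at 0 throughout, whereas TRAC, the constant region of the T cell receptor alpha chain, had means of 2288 in Control and 199 in LPS. What part these markers have in the changes below was not tested.

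LPS moved most of the expressed genome within 4 h, and 10892 of 13900 tested genes (78.4%) were called. At an adjusted p under 0.05 (limma on log2 of the normalized count plus 1, Benjamini-Hochberg over 13900 genes), 5253 genes rose (37.8%) and 5639 fell (40.6%), and 3008 were not called. Changes of at least 2-fold were called for 2301 raised genes (16.6%) and 2778 lowered genes (20%). With a background this broad, a count of members that passed the test is read here beside these shares. On equal totals 3118 genes rose (22.4%) and 8275 fell (59.5%). The largest changes were rises: 179 genes rose and 21 fell by 32-fold or more, although at 4-fold or more the numbers were 929 and 864. In 7898 genes (56.8%) the 6 LPS values and the 6 Control values did not overlap. In bulk RNA, fewer cells that express a gene and less RNA of it per cell cannot be told apart. Unless another value is given, each gene called raised or lowered below had a limma adjusted p of 0.0066 or less, and a log2 change is LPS minus Control ± its standard error.

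The summed mean values gained a net 8291975, with falls subtracted from rises. The gains of the 10 genes that gained most came to 28.9% of that net figure, and those of the 100 that gained most to 64.9%. CXCL8, the neutrophil chemoattractant interleukin 8, ranged from 1144 to 10395 (median 8088) in Control and from 415622 to 734213 (median 603614) in LPS. It gave the largest gain of all, and its highest Control value stayed below its lowest LPS value. SOD2, the manganese superoxide dismutase of mitochondria, had 884 to 3439 normalized counts (median 1707) in Control and 211145 to 249973 (median 239074) in LPS. TRAF1, an adaptor of TNF receptors, measured 308 to 501 (median 449) in Control and 86008 to 108451 (median 103624) in LPS. CD44, the hyaluronan receptor, ranged from 1004 to 3043 (median 2354) in Control and from 96069 to 120780 (median 110735) in LPS. In all 3 genes every LPS library lay far above every Control library, with log2 changes of 7.11 ± 0.20, 7.92 ± 0.16 and 5.81 ± 0.19. CCL3 and its neighbours CCL4, CCL3L3 and CCL4L2 also ranked high, but these genes have near-identical copies and 74.6% of the exon bases of CCL3 overlapped other genes' exons, so reads may be divided between them. EEF1A1, the translation elongation factor, had means of 399147 in Control and 543117 in LPS, a log2 change of 0.44 ± 0.11 with overlapping groups that became -0.03 on equal totals. Among losses the top positions went to CAP1, which recycles actin monomers, with means of 516990 in Control and 284310 in LPS, and to SPP1, the secreted phosphoprotein osteopontin, with means of 482748 in Control and 276495 in LPS. The CAP1 values did not overlap (log2 change -0.86 ± 0.10, with 31.2% of its exon bases shared with other genes), whereas those of SPP1 did (log2 change -0.79 ± 0.25).

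**Figure D1:**
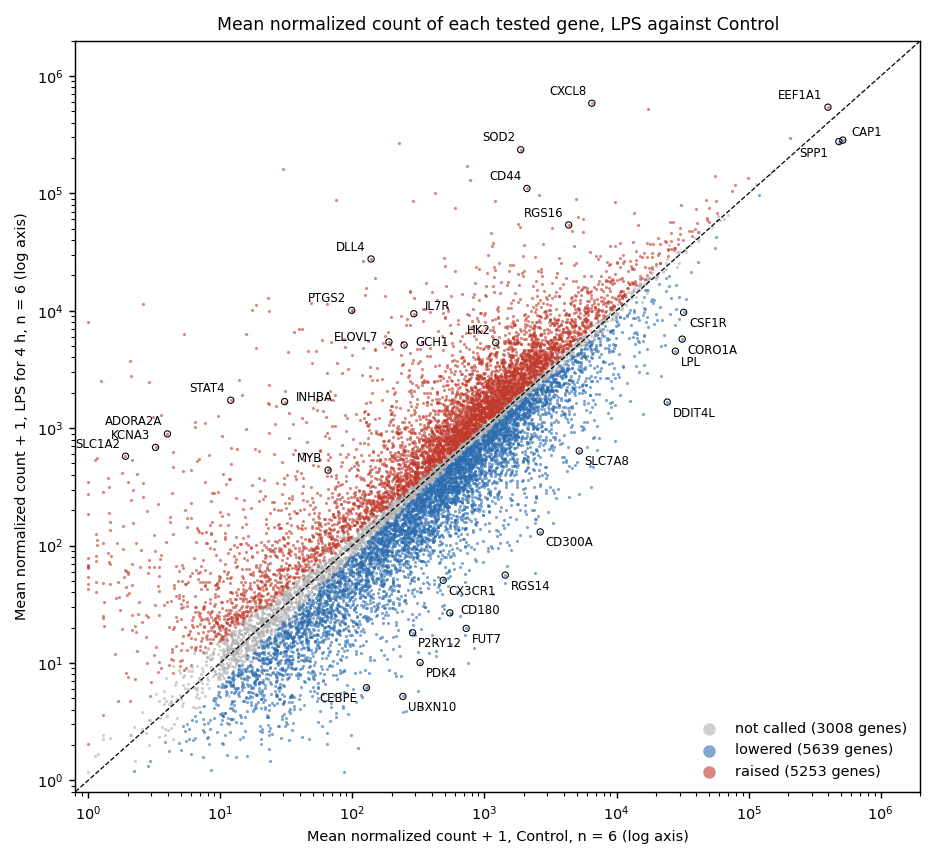
Each point is 1 of the 13900 tested genes, with the mean normalized count plus 1 of the 6 Control libraries on the horizontal axis and of the 6 LPS libraries on the vertical axis, both on log axes, and the dashed line marks equality. Raised genes are red, lowered genes blue and uncalled genes grey, and the rises reach farther from the line than the falls.

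Another 12 genes had no read in any Control library and at least 18 reads over the LPS libraries, and no gene showed the opposite. Against a floor of 3 reads over the 6 Control libraries, SELE, the endothelial adhesion molecule E-selectin, was at least 399-fold higher with LPS values of 123 to 263 (median 188). SP8, a zinc-finger factor of the SP family, was at least 91-fold higher, with LPS values of 25.4 to 51.8 (median 42.8). TNFSF8, the ligand of CD30, was at least 146-fold higher and IFNB1, interferon beta, at least 140-fold higher. The remaining genes of the 12 were IDO1, IDO2, CXCL9, CCL19, IL10 and the long noncoding RNA genes LINC02605, C9orf135-DT and LINC01539. These floors cover counting error only.

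Because the induced genes include many with known binding sites for NF-kB and for the interferon-responsive factors, the promoter letters of 8 raised genes and of 2 lowered genes that hold the same letters are shown. Stretches come from RefSeq promoters (GRCh38.p14), read 5′ to 3′ on the gene's strand, with the letters of the motif they are listed under in capitals. Several motifs were searched on both strands. Stretches are shown for a kappa B form, GGGANNTTCC, and an interferon-stimulated response element (ISRE) form, GAAANNGAAA. For kappa B the stretches are as follows.
NFKBIA (chr14:35404796-35404855, minus strand): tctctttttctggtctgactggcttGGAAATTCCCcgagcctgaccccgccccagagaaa
TNFAIP3 (chr6:137867167-137867226, plus strand): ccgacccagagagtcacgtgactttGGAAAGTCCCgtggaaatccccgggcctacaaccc
REL (chr2:60881502-60881562, plus strand): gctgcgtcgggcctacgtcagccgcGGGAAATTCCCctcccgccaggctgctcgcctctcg
TNFRSF9 (chr1:7940878-7940938, minus strand): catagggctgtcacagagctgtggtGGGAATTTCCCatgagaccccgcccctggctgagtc
FUT7 (chr9:137032118-137032177, minus strand): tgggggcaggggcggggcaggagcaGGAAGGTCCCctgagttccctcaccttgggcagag
For the ISRE form they are as follows.
IFIT1 (chr10:89392482-89392554, plus strand): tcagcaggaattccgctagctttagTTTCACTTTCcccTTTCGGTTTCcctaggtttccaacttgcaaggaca
CD274 (chr9:5450309-5450374, plus strand): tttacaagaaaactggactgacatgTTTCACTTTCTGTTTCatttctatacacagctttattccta
HERC5 (chr4:88456969-88457079, plus strand): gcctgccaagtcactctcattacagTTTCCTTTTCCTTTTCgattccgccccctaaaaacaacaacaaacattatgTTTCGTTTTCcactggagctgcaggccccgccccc
CASP5 (chr11:105023378-105023418, minus strand): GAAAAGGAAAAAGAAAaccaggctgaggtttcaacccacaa
RARG (chr12:53232210-53232256, minus strand): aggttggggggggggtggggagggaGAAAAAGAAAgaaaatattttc

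In NFKBIA, which encodes the inhibitor that holds NF-kB in the cytoplasm, the capitals lie 72 to 81 bases before the start, and in TNFAIP3, the ubiquitin-editing enzyme A20, 58 to 67 bases. In REL and in TNFRSF9 the letters match on both strands in overlapping frames, so 2 matches make up 1 run of capitals. NFKBIA had 567 to 1821 normalized counts (median 1093) in Control and 28468 to 39758 (median 37172) in LPS. TNFAIP3 measured 763 to 1582 (median 1075) in Control and 38482 to 51749 (median 45820) in LPS. Both rose without overlap between the groups, with log2 changes of 5.10 ± 0.24 and 5.40 ± 0.15. IFIT1, an interferon-induced protein that binds foreign RNA, ranged from 6.25 to 58.1 (median 24) in Control and from 2632 to 5451 (median 4620) in LPS. CD274, the checkpoint ligand PD-L1, had 4.17 to 6.3 normalized counts (median 5.83) in Control and 666 to 1696 (median 1103) in LPS. HERC5, the ligase that attaches ISG15, measured 37.5 to 76.9 (median 44.2) in Control and 1889 to 4162 (median 3939) in LPS. In these 3 genes all LPS libraries were far above all Control libraries (log2 changes of 7.38 ± 0.47, 7.42 ± 0.17 and 6.17 ± 0.27), and LPS E held the lowest LPS value of IFIT1 and of HERC5.

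Over the 7620 tested genes with 1 listed start, the kappa B letters stood within 250 bases before the start in 5.14% of the 467 genes raised at least 4-fold, in 0.875% of the 457 lowered at least 4-fold and in 1.38% of all. The ISRE letters stood in 8.35%, 2.41% and 2.69%, respectively. Among all 22114 RefSeq promoters the shares were 1.45% and 3.21%. A GC box (GGGCGG) was present at like shares in the raised (66.8%), lowered (65.6%) and all tested promoters (68.7%), and in 40.9% of all RefSeq promoters. The letters TATAAA stood in 11.8% of the strongly raised, 4.16% of the strongly lowered and 5.39% of all tested promoters. Their share among all RefSeq promoters was also 11.8%. AP-1 letters (TGANTCA) stood in 7.28%, 4.6% and 3.96%, respectively, and in 6.86% of all RefSeq promoters. Letters for the further sites named CRE, E-box and E2F stood in 3.21%, 6.85% and 1.71% of the strongly raised promoters. Among all tested promoters they stood in 3.18%, 8.99% and 2.23%. These shares describe letters in a window and were not tested. FUT7 and RARG, both lowered, show that the kappa B and ISRE letters also occur upstream of genes that fell.

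Glucose handling split between members that rose and members that fell. Of the glycolysis list, 12 of 25 tested members rose and 8 fell (median log2 change 0.04), and on equal totals 5 rose and 13 fell. SLC2A6, a glucose transporter family member of lysosomal membranes, ranged from 502 to 1403 (median 701) in Control and from 12228 to 14161 (median 13083) in LPS. HK2, the hexokinase that commits glucose to the cell, had 846 to 1427 normalized counts (median 1225) in Control and 3856 to 7117 (median 5435) in LPS. PFKFB3, which makes the activator of phosphofructokinase, measured 680 to 1174 (median 937) in Control and 2739 to 4711 (median 3542) in LPS. All 3 were higher in every LPS library than in any Control library (log2 changes of 4.10 ± 0.18, 2.13 ± 0.13 and 1.96 ± 0.13; limma adjusted p = 1.5e-16, 9.2e-14 and 1.1e-12). SLC2A1, the transporter GLUT1, also rose (1.59 ± 0.13). By contrast PFKFB4, the sister enzyme of PFKFB3, ranged from 818 to 2425 (median 1615) in Control and from 98.2 to 374 (median 198) in LPS. The transporter SLC2A3 (GLUT3) had 373 to 558 normalized counts (median 480) in Control and 51.8 to 145 (median 110) in LPS. Both fell without overlap (log2 changes of -2.89 ± 0.26 and -2.27 ± 0.24). HK2 lies at chr2:74833981-74893359 and PFKFB3 at chr10:6144934-6254644 (GRCh38, GENCODE 29).

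At the mitochondrial end of the pathway, 11 of 33 tested members rose and 15 fell (median log2 change -0.13), or 4 and 24 on equal totals. The list's extreme rise was ACOD1, which makes itaconate from a cycle intermediate. PDK4, the kinase that blocks entry of pyruvate into the cycle, measured 169 to 522 (median 249) in Control and 1.29 to 16 (median 8.9) in LPS. It was the member with the largest fall, with at most 16 normalized counts in any LPS library and a log2 change of -5.19 ± 0.39. IDH1, the cytosolic isocitrate dehydrogenase that makes NADPH, ranged from 712 to 1380 (median 819) in Control and from 72.6 to 176 (median 99.8) in LPS and fell by 3.14 on the log2 scale (± 0.21, limma adjusted p = 5.5e-13). CS, citrate synthase, had 1355 to 1798 normalized counts (median 1510) in Control and 3021 to 3809 (median 3286) in LPS, so that the first enzyme of the cycle rose (1.14 ± 0.07) while IDH1 fell, and the direction of both held on equal totals (0.66 and -3.61). Nuclear-encoded subunits of the respiratory chain moved little: 15 of 71 tested members rose and 23 fell (median log2 change -0.08), but on equal totals 3 rose and 61 fell. CYCS, cytochrome c, had means of 2928 in Control and 8774 in LPS (log2 change 1.59 ± 0.09). All 13 mitochondrially encoded genes rose, with a median log2 change of 0.81, and 12 of them did so on equal totals.

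An elongase gene and an activation gene of fatty acids were among the larger metabolic rises. ELOVL7, an elongase of long-chain fatty acids, measured 140 to 221 (median 198) in Control and 4152 to 6414 (median 5659) in LPS. ACSL1, which activates fatty acids with coenzyme A, ranged from 1630 to 2352 (median 1946) in Control and from 30733 to 42797 (median 36773) in LPS. No library of either group crossed into the range of the other, and log2 changes were 4.85 ± 0.14 and 4.19 ± 0.10 (limma adjusted p = 9.6e-20 and 3e-21). In that list 9 of 16 tested members rose and 5 fell (median log2 change 0.77), with 8 and 7 on equal totals. The 5 that fell included another elongase and desaturases, and the lowest log2 change in the list was -2.58. Oxidation genes leaned the other way: 4 of 20 tested members rose and 12 fell (median log2 change -0.64), and 2 and 17 on equal totals. CPT1A, which admits fatty acids to mitochondria, had 859 to 1574 normalized counts (median 1250) in Control and 270 to 408 (median 336) in LPS. SLC25A20, the carnitine carrier of the inner membrane, measured 818 to 1565 (median 885) in Control and 94.3 to 231 (median 153) in LPS. Both were lower in all LPS libraries (-1.80 ± 0.13 and -2.80 ± 0.19), as was ACADM, the medium-chain dehydrogenase of the spiral itself (-1.55 ± 0.15). HADHA, part of the trifunctional enzyme, had means of 4128 in Control and 4044 in LPS and was not called (limma adjusted p = 0.55), but was lowered on equal totals (-0.51).

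Sterol genes fell in most members. In the list of sterol synthesis and uptake, 4 of 23 tested members rose and 13 fell (median log2 change -1.08). SC5D, a desaturase of cholesterol synthesis, ranged from 983 to 1379 (median 1273) in Control and from 159 to 342 (median 286) in LPS. Its LPS values lay below all Control values (log2 change -2.21 ± 0.27). INSIG1, which retains the sterol sensor in the endoplasmic reticulum, and STARD4, a sterol transfer protein, moved up instead. INSIG1 had 1154 to 3674 normalized counts (median 3181) in Control and 12509 to 21087 (median 17140) in LPS. STARD4 measured 913 to 1567 (median 1294) in Control and 8178 to 14687 (median 8796) in LPS, and log2 changes were 2.70 ± 0.25 and 2.97 ± 0.18.

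ABCA1, the pump that loads cholesterol onto apolipoproteins, ranged from 245 to 796 (median 570) in Control and from 3684 to 6130 (median 5121) in LPS and rose (3.20 ± 0.25). In the list of efflux genes and targets of the oxysterol receptor LXR, 3 of 20 tested members rose and 8 fell (median log2 change -0.20), with 2 and 15 on equal totals. Genes of lipid storage divided too, since 5 of 13 tested members rose and 7 fell (median log2 change -0.32). MGLL, the lipase that frees glycerol and fatty acid from monoglycerides, had 162 to 1540 normalized counts (median 428) in Control and 7164 to 8382 (median 7673) in LPS. G0S2, an inhibitor of the droplet lipase ATGL, measured 883 to 2010 (median 1158) in Control and 11245 to 16663 (median 14704) in LPS. Both were higher in every LPS library (4.08 ± 0.40 and 3.51 ± 0.18). LPL, the secreted lipoprotein lipase, ranged from 18137 to 35791 (median 27278) in Control and from 3314 to 5507 (median 4671) in LPS. PLIN2, a droplet coat protein, had 14715 to 19246 normalized counts (median 17544) in Control and 5674 to 9447 (median 7248) in LPS. LPL and PLIN2 were lower in every LPS library (-2.61 ± 0.23 and -1.28 ± 0.10).

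Prostaglandin genes rose at the enzyme and at the receptor, and a leukotriene receptor fell. PTGS2, the inducible cyclooxygenase COX-2, measured 73.6 to 124 (median 96.3) in Control and 3942 to 19237 (median 8750) in LPS. The LPS libraries spread widely for this gene, but their lowest value was far above the Control range, with a log2 change of 6.48 ± 0.28 (limma adjusted p = 1.7e-16). The prostaglandin E2 receptors PTGER4 and PTGER2 rose by 3.39 ± 0.13 and 3.68 ± 0.23 on the log2 scale, from means of 1945 to a mean of 19946 and of 105 to a mean of 1311. CYSLTR1, a receptor for cysteinyl leukotrienes, ranged from 1817 to 3493 (median 3375) in Control and from 250 to 477 (median 412) in LPS and fell in every LPS library (-2.95 ± 0.24). Across the eicosanoid list, 9 of 19 tested members rose and 8 fell (median log2 change 0.07), or 6 and 10 on equal totals. PTGS2 is at chr1:186671791-186680427.

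**Figure D2:**
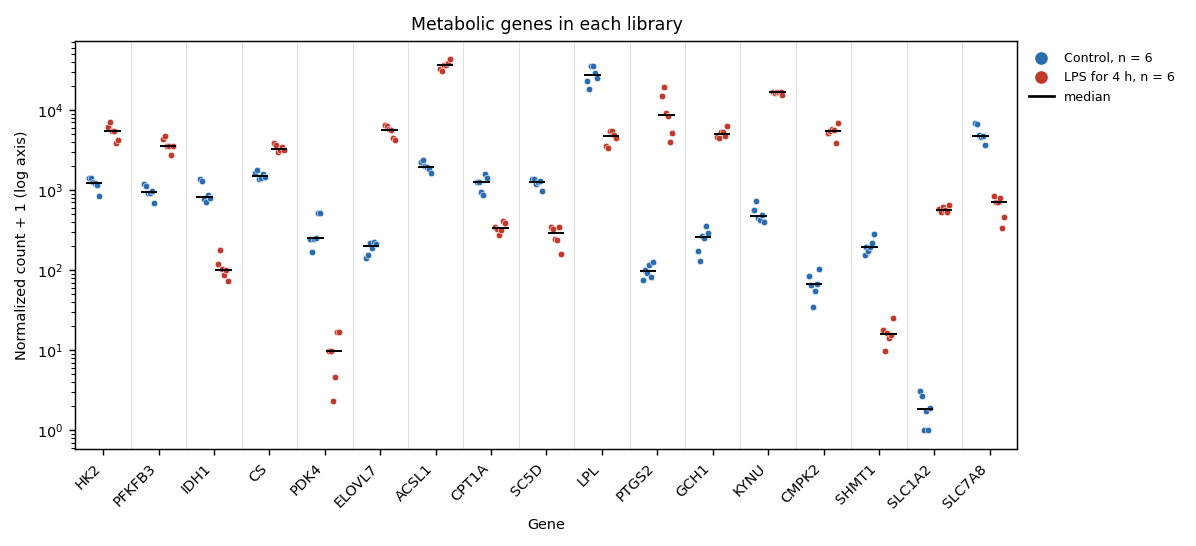
Normalized count plus 1 (vertical log axis) of 17 metabolic genes in each of the 6 Control libraries (blue) and 6 LPS libraries (red), with black lines at the medians. For all 17 genes the blue and red points do not overlap, and PTGS2, CMPK2 and SLC1A2 show the largest rises while PDK4 and SHMT1 show the largest falls.

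Tryptophan breakdown and NAD supply changed at several steps. KYNU, kynureninase, had 400 to 721 normalized counts (median 472) in Control and 15556 to 16957 (median 16532) in LPS. NAMPT, the rate-limiting enzyme of NAD salvage, measured 823 to 1463 (median 1248) in Control and 19338 to 23978 (median 22276) in LPS. The LPS values of both were tightly grouped and lay far above Control (5.04 ± 0.12 and 4.22 ± 0.14; limma adjusted p = 2.4e-21 and 8.8e-19). QPRT, which turns the tryptophan product quinolinate into an NAD precursor, ranged from 1728 to 2552 (median 2047) in Control and from 453 to 692 (median 521) in LPS and fell (-1.96 ± 0.11). In this list 13 of 22 tested members rose and 8 fell (median log2 change 0.79). GCH1, the first enzyme of tetrahydrobiopterin synthesis, had 129 to 359 normalized counts (median 260) in Control and 4428 to 6312 (median 4983) in LPS. SAT1, which acetylates polyamines for export, measured 563 to 714 (median 634) in Control and 7445 to 9335 (median 8218) in LPS. Both rose without overlap (4.44 ± 0.23 and 3.72 ± 0.10), within a list in which 10 of 17 tested members rose and 4 fell (median log2 change 0.57) (7 and 7 on equal totals).

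Of the serine and folate one-carbon genes, 3 of 18 tested members rose and 8 fell (median log2 change -0.51). MTHFD2, the mitochondrial folate dehydrogenase, ranged from 2066 to 3313 (median 2289) in Control and from 12008 to 14139 (median 13550) in LPS, although 33.2% of its exon bases overlapped other genes. SHMT1, the cytosolic serine hydroxymethyltransferase, had 156 to 285 normalized counts (median 193) in Control and 8.87 to 24.2 (median 15.1) in LPS. The MTHFD2 values in LPS stood above and those of SHMT1 below the whole Control range (log2 changes of 2.43 ± 0.11 and -3.65 ± 0.16). SHMT2, the mitochondrial counterpart of SHMT1, had means of 2122 in Control and 2048 in LPS and was not called (limma adjusted p = 0.34; -0.53 and lowered on equal totals). Nucleotide genes leaned upward, as 18 of 29 tested members rose and 8 fell (median log2 change 0.57) (12 and 9 on equal totals). CMPK2, a mitochondrial nucleotide kinase also known as an interferon-induced gene, measured 34.1 to 102 (median 65.8) in Control and 3808 to 6785 (median 5512) in LPS, a log2 change of 6.36 ± 0.31 with no overlap. CTPS1, which makes CTP, and ADA, which removes adenosine, had means of 3571 in Control and 21124 in LPS and of 234 in Control and 2958 in LPS and rose (2.58 ± 0.11 and 3.64 ± 0.16). TK2, the mitochondrial thymidine kinase, ranged from 632 to 751 (median 668) in Control and from 54.9 to 88.1 (median 67.4) in LPS and fell (-3.29 ± 0.12, with 25% of its exon bases shared with other genes).

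Amino acid and metal carriers included some of the steepest changes. SLC1A2, a glutamate transporter best known from astrocytes, had 0 to 2.1 normalized counts (median 0.833) in Control and 528 to 644 (median 570) in LPS. Control libraries were at or near 0 and every LPS library was far above them, a log2 change of 8.36 ± 0.34 on the scale of the count plus 1. SLC43A2 (LAT4), a carrier of large neutral amino acids, measured 114 to 323 (median 127) in Control and 3598 to 5954 (median 5054) in LPS. SLC7A2, a carrier of arginine and other cationic amino acids, ranged from 86.2 to 177 (median 122) in Control and from 1489 to 1770 (median 1678) in LPS. SLC7A8 (LAT2), another carrier of neutral amino acids, had 3658 to 6784 normalized counts (median 4777) in Control and 331 to 834 (median 708) in LPS. The first pair rose in every LPS library (4.88 ± 0.25 and 3.73 ± 0.15) and SLC7A8 fell in every one (-3.07 ± 0.19). Overall in this list 14 of 27 tested members rose and 9 fell (median log2 change 0.34), or 10 and 12 on equal totals. SLC39A14 (ZIP14), which imports zinc and iron, measured 708 to 3926 (median 1637) in Control and 19970 to 37493 (median 30938) in LPS and rose (4.11 ± 0.28). MT2A, a metallothionein that binds zinc, ranged from 27.3 to 56.3 (median 45.5) in Control and from 871 to 1538 (median 1054) in LPS and rose (4.67 ± 0.32; its family members are close copies, so reads may be shared), while SLC30A1, the zinc exporter of the plasma membrane, had 1744 to 2622 normalized counts (median 1938) in Control and 383 to 760 (median 551) in LPS and fell (-1.96 ± 0.15). For iron and heme genes 12 of 24 tested members rose and 9 fell (median log2 change 0.29), but on equal totals 10 rose and 11 fell (median -0.19).

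Of the genes that make and remove oxidants, 11 of 25 tested members rose (44%) and 10 fell (40%), close to the 37.8% and 40.6% of all tested genes. The median log2 change was 0.01, and on equal totals 8 rose and 15 fell. SOD2 is described above. CAT, catalase, measured 1114 to 2244 (median 1359) in Control and 405 to 856 (median 617) in LPS. GPX1, a glutathione peroxidase, ranged from 23703 to 36466 (median 29143) in Control and from 11146 to 16381 (median 12520) in LPS. Both of these peroxide-removing enzymes fell in every LPS library (-1.28 ± 0.16 and -1.18 ± 0.10).

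**Figure D3:**
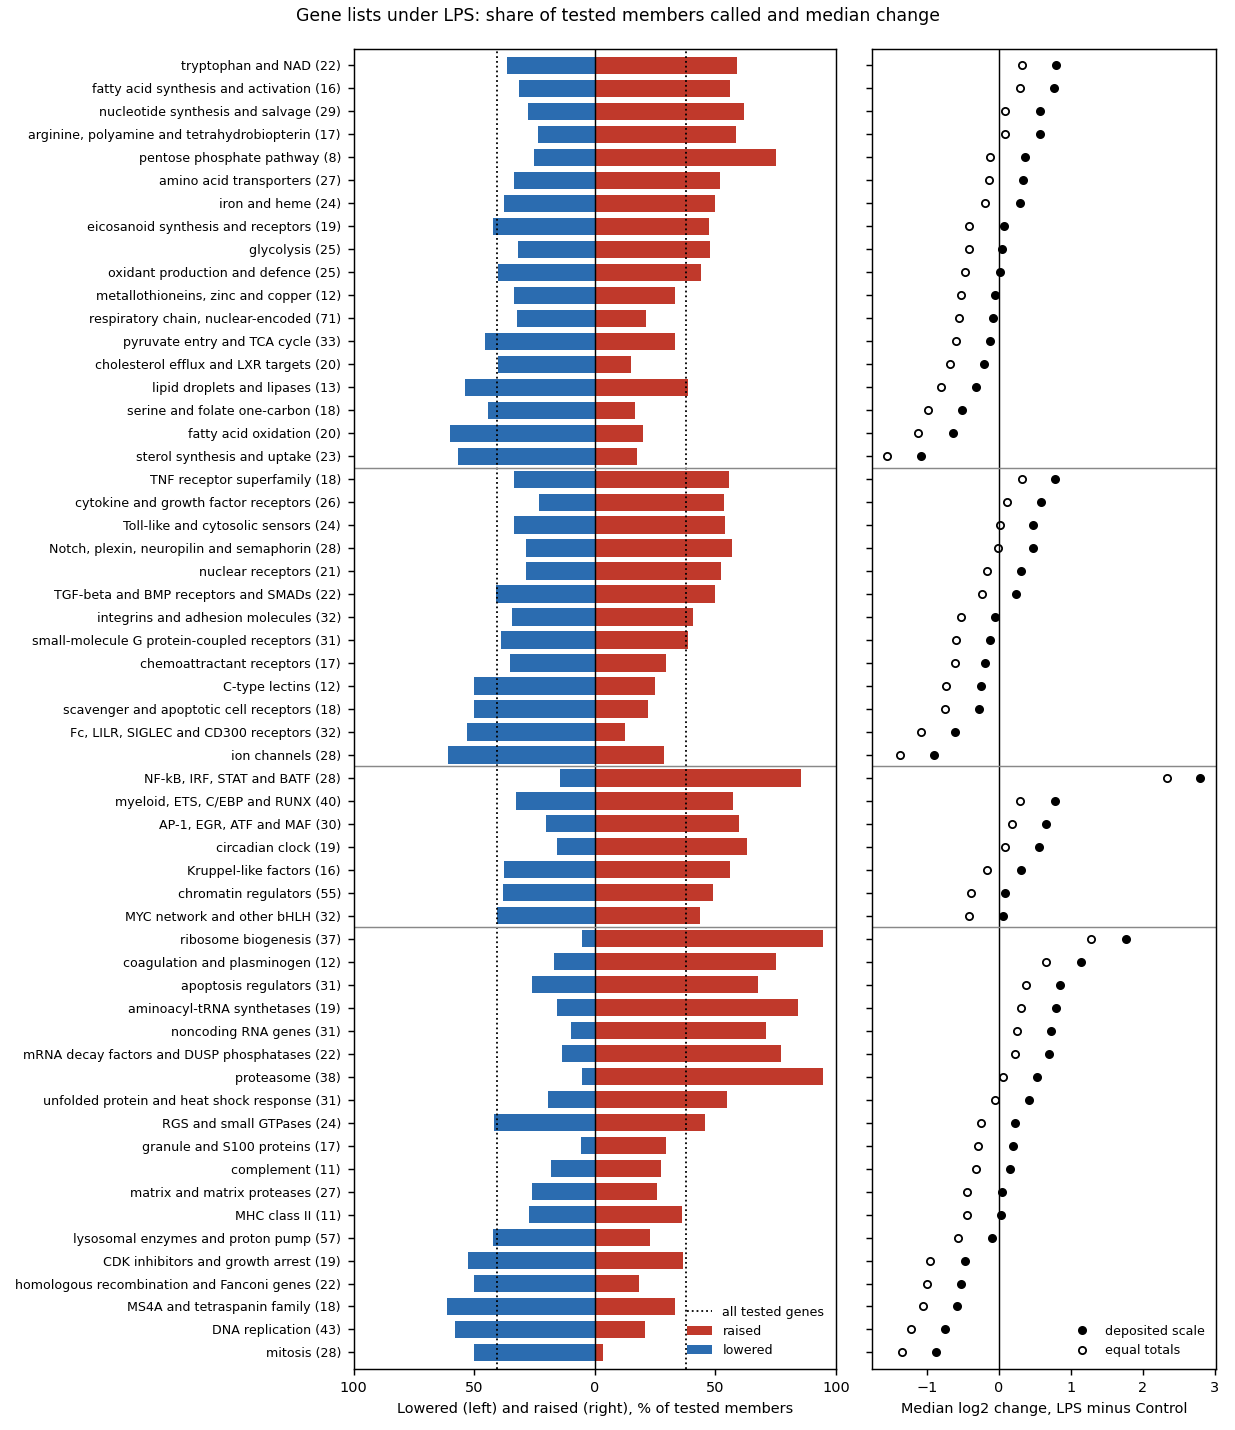
Left, the percentage of tested members lowered (blue, to the left of 0) and raised (red, to the right) for 57 gene lists, with the number tested in brackets and dotted lines at the shares of all tested genes (40.6% lowered, 37.8% raised). Right, each list's median log2 change on the deposited scale (filled) and on equal totals (open), which lie to the left by about the shift of -0.47, and horizontal lines part metabolism, receptors, transcription factors and other groups from top to bottom.

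Receptors for small molecules changed in both directions, at shares close to those of all tested genes. A pair of adenosine receptors stood at the ends of their list. ADORA2A, the adenosine receptor that raises cyclic AMP, had 1.04 to 6.3 normalized counts (median 2.23) in Control and 764 to 975 (median 896) in LPS. ADORA3, the receptor that lowers it, measured 183 to 450 (median 371) in Control and 1.33 to 7.12 (median 2.77) in LPS. ADORA2A was nearly silent in Control and ADORA3 nearly silent in LPS, with log2 changes of 7.95 ± 0.30 and -6.31 ± 0.28 (limma adjusted p = 1.4e-17 and 2.2e-16). Exons of other genes covered 60% and 18% of their exon bases, and how the counting treated strand is not given in the sources used here, so part of these reads may belong to the overlapping genes. GPR132, a receptor for oxidized lipids and lactate, ranged from 877 to 1087 (median 1056) in Control and from 11698 to 15493 (median 13399) in LPS and rose (3.74 ± 0.11). LPAR5, a lysophosphatidic acid receptor, had 189 to 274 normalized counts (median 202) in Control and 2.59 to 9.55 (median 6.81) in LPS. P2RY12, a receptor for ADP, measured 52.9 to 729 (median 218) in Control and 4.44 to 28 (median 17.4) in LPS. Both fell without overlap (-4.87 ± 0.31 and -3.73 ± 0.61), P2RY12 from the more variable Control values. Members of this receptor list were called in equal numbers: 12 of 31 tested members rose (38.7%) and 12 fell (38.7%), against 37.8% and 40.6% of all tested genes. The median log2 change was -0.12, and on equal totals 7 rose and 17 fell.

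Chemoattractant receptors changed in both directions, as 5 of 17 tested members rose and 6 fell (median log2 change -0.19), shares no larger than those of all tested genes. CCR7, which guides cells to lymph nodes, ranged from 0 to 3.81 (median 0.427) in Control and from 1804 to 4799 (median 2570) in LPS. It was the largest rise of the list and close to 0 in every Control library (log2 change 10.57 ± 0.38 on the scale of the count plus 1). CX3CR1, the fractalkine receptor, had 215 to 936 normalized counts (median 389) in Control and 16.3 to 105 (median 31.5) in LPS. C3AR1, the receptor of complement fragment C3a, measured 364 to 613 (median 561) in Control and 86.8 to 167 (median 129) in LPS. CCR1, a receptor of CCL3 and CCL5, ranged from 1296 to 2543 (median 1474) in Control and from 412 to 537 (median 450) in LPS. In CX3CR1, C3AR1 and CCR1 the highest LPS value was below the lowest Control value (log2 changes of -3.40 ± 0.43, -2.02 ± 0.15 and -1.87 ± 0.17). CXCR4 and ACKR3, the signalling and the scavenging receptor of CXCL12, both rose, with means of 101 in Control and 475 in LPS (2.25 ± 0.38) and of 375 in Control and 2476 in LPS (2.77 ± 0.17).

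Receptors for lymphoid cytokines were among the genes that LPS brought from low to high levels. IL15RA, which presents interleukin 15 to neighbouring cells, had 19.9 to 46.1 normalized counts (median 25.7) in Control and 1679 to 2814 (median 2012) in LPS. IL7R, a receptor of interleukin 7 and TSLP, measured 131 to 459 (median 266) in Control and 7256 to 15256 (median 8399) in LPS. IL18R1, the binding chain for interleukin 18, ranged from 6.25 to 50.4 (median 16.7) in Control and from 1930 to 2642 (median 2411) in LPS. Every LPS library exceeded every Control library, with log2 changes of 6.12 ± 0.19, 5.11 ± 0.26 and 6.96 ± 0.36 (limma adjusted p = 2.9e-19, 4.5e-15 and 4.3e-15), and LPS F stood above the other LPS libraries in IL7R. IL17RA, the shared receptor of interleukin 17 forms, had 5881 to 7828 normalized counts (median 6561) in Control and 1095 to 1248 (median 1190) in LPS. IFNGR1, the ligand-binding chain for interferon gamma, measured 6299 to 19419 (median 11293) in Control and 2020 to 3071 (median 2262) in LPS. CSF1R, the receptor of the macrophage growth factor, ranged from 24582 to 40010 (median 30741) in Control and from 6115 to 13887 (median 9202) in LPS. These 3 fell in all LPS libraries (-2.49 ± 0.07, -2.22 ± 0.19 and -1.77 ± 0.16). Across the list 14 of 26 tested members rose and 6 fell (median log2 change 0.58). IL15RA lies at chr10:5943639-5978187, IL7R at chr5:35852695-35879603 and CSF1R at chr5:150053291-150113372.

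In the TNF receptor superfamily 10 of 18 tested members rose and 6 fell (median log2 change 0.78) (9 and 9 on equal totals). CD40, which receives help from T cells, had 197 to 468 normalized counts (median 377) in Control and 9710 to 12134 (median 10100) in LPS. TNFRSF9, the costimulatory receptor 4-1BB, measured 119 to 180 (median 147) in Control and 3830 to 5986 (median 4609) in LPS. The LPS values of both were far above Control (4.99 ± 0.16 and 4.98 ± 0.20), and TNFRSF21 (death receptor 6) fell, from a mean of 2315 to a mean of 1059 (-1.12 ± 0.14). Genes of the TGF-beta family changed in both directions. INHBA, the subunit of activin A, ranged from 10.5 to 62.5 (median 17.4) in Control and from 1113 to 2317 (median 1495) in LPS. TGFBR2, the ligand-binding receptor of TGF-beta, had 3292 to 5674 normalized counts (median 4131) in Control and 185 to 334 (median 263) in LPS. INHBA rose by 6.05 ± 0.44 and TGFBR2 changed by -4.07 ± 0.16 on the log2 scale, neither with overlapping groups, in a list where 11 of 22 tested members rose and 9 fell (median log2 change 0.24) and, on equal totals, 4 rose and 11 fell.

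Sensors of microbes changed in both directions, as 13 of 24 tested members rose and 8 fell (median log2 change 0.48) (10 and 10 on equal totals). NLRC4, which assembles the inflammasome for flagellin, measured 357 to 475 (median 451) in Control and 3.58 to 26.7 (median 10.8) in LPS. CD180, a Toll-like receptor homologue that dampens LPS signalling, ranged from 411 to 724 (median 509) in Control and from 5.91 to 45.4 (median 22.5) in LPS. STING1, the adaptor for cytosolic DNA, had 758 to 1344 normalized counts (median 1084) in Control and 181 to 263 (median 209) in LPS. The 3 fell in every LPS library (-5.21 ± 0.36, -4.60 ± 0.32 and -2.27 ± 0.18). NOD2, the sensor of muramyl dipeptide, measured 23.7 to 79.4 (median 27) in Control and 224 to 370 (median 280) in LPS and rose (2.92 ± 0.37).

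More scavenger receptors were lowered than raised. OLR1, a C-type lectin that binds oxidized LDL and is counted with the lectins, ranged from 592 to 1977 (median 714) in Control and from 14520 to 28561 (median 20438) in LPS and rose by 4.48 ± 0.34 on the log2 scale. MSR1, scavenger receptor A, had 24830 to 44427 normalized counts (median 31095) in Control and 9618 to 17393 (median 10797) in LPS. CD36, which takes up fatty acids and oxidized LDL, measured 15385 to 27708 (median 21927) in Control and 6092 to 9893 (median 8643) in LPS. All LPS values of these 2 genes were below the Control values (-1.41 ± 0.17 and -1.38 ± 0.15), and in their list 4 of 18 tested members rose and 9 fell (median log2 change -0.28). Of the Fc, LILR, SIGLEC and CD300 receptors, which include inhibitory and activating members, 4 of 32 tested members rose and 17 fell (median log2 change -0.61), or 2 and 23 on equal totals. CD300A, an inhibitory receptor for phosphatidylserine and phosphatidylethanolamine, ranged from 1702 to 3387 (median 2824) in Control and from 88.7 to 168 (median 128) in LPS. SIGLEC9, which binds sialic acid, had 505 to 736 normalized counts (median 678) in Control and 68.3 to 127 (median 86.6) in LPS. CD300LB, an activating member, measured 250 to 389 (median 277) in Control and 21.5 to 50.7 (median 37.7) in LPS. Each fell without overlap (log2 changes of -4.34 ± 0.22, -2.84 ± 0.14 and -3.01 ± 0.32). CD300A and CD300LB lie at chr17:74466399-74484796 and chr17:74521174-74531474.

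Adhesion molecules were not raised as a group: 13 of 32 tested members rose (40.6%) and 11 fell (34.4%), near the 37.8% and 40.6% of all tested genes. The median log2 change was -0.05, and on equal totals 13 rose and 17 fell. ITGB8, the integrin beta-8 chain that can release active TGF-beta, ranged from 46.1 to 221 (median 110) in Control and from 10651 to 15039 (median 13911) in LPS. ICAM1, the ligand of leukocyte integrins, had 3036 to 5943 normalized counts (median 5399) in Control and 81937 to 96541 (median 88236) in LPS. ITGB8 and ICAM1 were higher in every LPS library (7.02 ± 0.31 and 4.21 ± 0.12, the second with 23.6% of its exon bases shared with other genes). ITGA4, the alpha chain of the VCAM-1 receptor, measured 2732 to 5108 (median 3696) in Control and 672 to 901 (median 745) in LPS. ITGAL, the alpha chain of LFA-1, ranged from 11942 to 19007 (median 13595) in Control and from 3723 to 5647 (median 4097) in LPS. ITGA4 and ITGAL were lower in every one (-2.33 ± 0.11 and -1.72 ± 0.16). ITGB2, the beta chain with which ITGAL pairs, had means of 157014 in Control and 157561 in LPS and was not called (limma adjusted p = 0.94; -0.47 and lowered on equal totals).

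Transcripts of a Notch ligand, a target gene and a receptor changed. DLL4, a Notch ligand, had 53 to 314 normalized counts (median 88.7) in Control and 20298 to 33547 (median 29741) in LPS. HES4, a target gene of the pathway, measured 1.04 to 6.83 (median 4.46) in Control and 246 to 843 (median 373) in LPS. NOTCH1 itself ranged from 11305 to 17357 (median 15322) in Control and from 5062 to 5589 (median 5466) in LPS. Ligand and target rose in every LPS library (7.94 ± 0.38 and 6.42 ± 0.48; limma adjusted p = 1.2e-15 and 6.8e-12), and the receptor was lower in every one (-1.44 ± 0.08). NRP2, a coreceptor for semaphorins and VEGF-C, rose from a mean of 256 to a mean of 8530 (5.11 ± 0.16). In this list of guidance receptors and Notch genes 16 of 28 tested members rose and 8 fell (median log2 change 0.47), or 11 and 9 on equal totals.

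Of the ion channels, 8 of 28 tested members rose and 17 fell (median log2 change -0.90). KCNA3, the voltage-gated potassium channel Kv1.3, had 0 to 4.57 normalized counts (median 2.3) in Control and 540 to 836 (median 689) in LPS. P2RX7, the channel opened by extracellular ATP, measured 88.7 to 174 (median 96.7) in Control and 3634 to 6079 (median 5173) in LPS. KCNE3, a potassium channel subunit, ranged from 218 to 433 (median 303) in Control and from 14.3 to 42.7 (median 23.7) in LPS. KCNA3 was close to 0 in Control and rose in all LPS libraries together with P2RX7 (8.02 ± 0.43 and 5.36 ± 0.19), and KCNE3 fell in all (-3.67 ± 0.19).

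**Figure D4:**
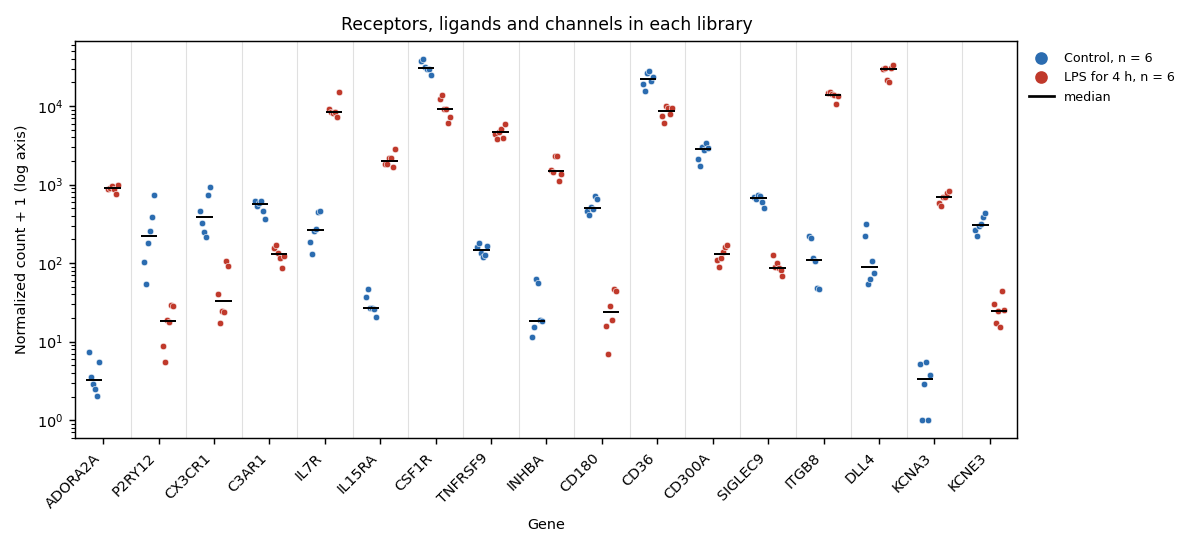
Normalized count plus 1 (vertical log axis) of 17 receptor, ligand and channel genes in the 6 Control libraries (blue) and 6 LPS libraries (red), with black lines at the medians. ADORA2A and KCNA3 start near 0 and end at 540 or above in every LPS library, and P2RY12, CX3CR1, CD180 and CD300A are lower in every LPS library than in any Control library.

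Transcription factors of the NF-kB, IRF, STAT and BATF families were called in every tested member: 24 of 28 tested members rose and 4 fell (median log2 change 2.80). STAT4, which carries interleukin 12 and type I interferon signals, had 4.73 to 23.9 normalized counts (median 6.59) in Control and 1422 to 2159 (median 1670) in LPS. NFKBIZ, the nuclear cofactor of NF-kB for secondary genes, measured 158 to 240 (median 177) in Control and 5426 to 7384 (median 7053) in LPS. REL, the c-Rel subunit whose promoter letters are shown above, ranged from 319 to 416 (median 346) in Control and from 8231 to 12206 (median 10122) in LPS. All 3 rose in every LPS library by log2 changes of 7.39 ± 0.32, 5.15 ± 0.12 and 4.86 ± 0.11 (limma adjusted p = 1.9e-16, 2.6e-21 and 1.6e-21), and 43.3% of the exon bases of REL were shared with other genes. The 4 lowered members included IRF3, the factor that TRIF activates without new synthesis, which had 1243 to 1557 normalized counts (median 1442) in Control and 678 to 891 (median 762) in LPS. IRF5, a factor of the same family, measured 1425 to 1939 (median 1648) in Control and 1049 to 1110 (median 1065) in LPS. Both fell by less than 2-fold and without overlap (log2 changes of -0.86 ± 0.07 and -0.62 ± 0.09). STAT4 lies at chr2:191029576-191151596 and NFKBIZ at chr3:101827991-101861022.

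Early-response factors mostly rose, as 18 of 30 tested members rose and 6 fell (median log2 change 0.66) (15 and 12 on equal totals), and MAF fell. EGR3, an immediate-early zinc-finger factor, ranged from 8.52 to 20.6 (median 14.2) in Control and from 98.2 to 280 (median 231) in LPS. FOSL1 and JUNB, subunits of AP-1, had means of 621 in Control and 3730 in LPS and of 3492 in Control and 19301 in LPS. MAF, which drives interleukin 10 and genes of tissue macrophages, had 1175 to 3629 normalized counts (median 2430) in Control and 124 to 396 (median 264) in LPS. EGR3, FOSL1 and JUNB rose in each LPS library (3.76 ± 0.32, 2.67 ± 0.21 and 2.49 ± 0.14), while MAF fell in each (-3.22 ± 0.27).

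Myeloid and ETS factors changed in both directions. ETV3, an ETS repressor, measured 1561 to 2476 (median 1934) in Control and 16699 to 27011 (median 21727) in LPS. MYB, a factor of progenitor cells, ranged from 43.5 to 86 (median 63.7) in Control and from 343 to 550 (median 449) in LPS. Both were higher in every LPS library (3.46 ± 0.12 and 2.77 ± 0.17). CEBPE, the C/EBP factor of late granulocyte development, had 104 to 158 normalized counts (median 116) in Control and 1.48 to 8.54 (median 5.62) in LPS. ETV5, an ETS activator, measured 1604 to 2458 (median 2139) in Control and 122 to 276 (median 179) in LPS. These fell without overlap (-4.50 ± 0.25 and -3.52 ± 0.15). In the list 23 of 40 tested members rose and 13 fell (median log2 change 0.78). Of the Kruppel-like factors, KLF5 ranged from 60.6 to 179 (median 147) in Control and from 2024 to 3319 (median 3009) in LPS and rose (4.44 ± 0.21), and KLF4, a factor of monocyte differentiation, had 1209 to 2338 normalized counts (median 1795) in Control and 344 to 517 (median 418) in LPS and fell (-1.99 ± 0.19).

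MYC, the growth regulator, measured 727 to 1447 (median 939) in Control and 6990 to 8996 (median 7824) in LPS. Its relative MYCL ranged from 923 to 1183 (median 1114) in Control and from 162 to 266 (median 212) in LPS. The pair changed without overlap in opposite directions (3.02 ± 0.13 and -2.35 ± 0.12). BHLHE40, a repressor linked to the circadian clock and to cytokine control, rose from a mean of 387 to a mean of 4836 (3.69 ± 0.19), and HIF1A, the oxygen-regulated factor that drives glycolytic genes, from 2500 to a mean of 15152 (2.61 ± 0.09). ID1, an inhibitor of bHLH factors and a target of BMP signalling, had 340 to 1063 normalized counts (median 572) in Control and 39.9 to 184 (median 68.6) in LPS and fell (-2.83 ± 0.29). Among nuclear receptors 11 of 21 tested members rose and 6 fell (median log2 change 0.31), or 7 and 11 on equal totals. RXRA, the common partner of LXR, PPAR and retinoic acid receptors, measured 5598 to 7787 (median 6559) in Control and 627 to 944 (median 870) in LPS. RARG, a retinoic acid receptor, ranged from 1620 to 2315 (median 1953) in Control and from 216 to 473 (median 291) in LPS. Both were lower in every LPS library (-3.01 ± 0.10 and -2.71 ± 0.21; limma adjusted p = 5.3e-19 and 1.1e-11), and NR3C1, the glucocorticoid receptor, was higher in every one, with means of 4815 in Control and 12323 in LPS (1.37 ± 0.08).

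Chromatin enzymes changed in both directions. KDM6B, which removes methyl groups from lysine 27 of histone H3, had 358 to 577 normalized counts (median 518) in Control and 7793 to 10980 (median 9825) in LPS. EZH2, which adds them, measured 301 to 447 (median 318) in Control and 1487 to 2420 (median 2079) in LPS. Both rose in every LPS library (4.31 ± 0.13 and 2.54 ± 0.10). HDAC5, a class IIa histone deacetylase, ranged from 3773 to 4545 (median 4120) in Control and from 381 to 622 (median 512) in LPS. EHMT2 (G9a), a methyltransferase of lysine 9, had 1528 to 2361 normalized counts (median 2003) in Control and 242 to 335 (median 270) in LPS. DNMT1, the maintenance DNA methyltransferase, measured 6158 to 8069 (median 6987) in Control and 1640 to 2330 (median 1873) in LPS. These 3 fell in every LPS library (-3.01 ± 0.09, -2.82 ± 0.10 and -1.85 ± 0.07). Of the chromatin list 27 of 55 tested members rose and 21 fell (median log2 change 0.08), with 14 and 36 on equal totals.

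**Figure D5:**
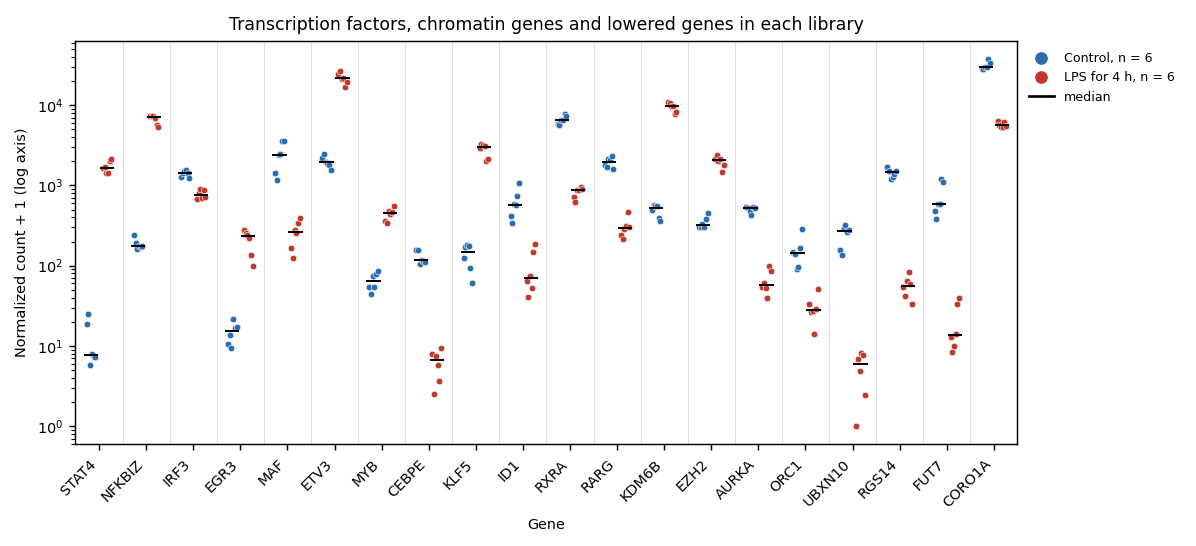
Normalized count plus 1 (vertical log axis) of 20 transcription factor, chromatin and lowered genes in the 6 Control libraries (blue) and 6 LPS libraries (red), with black lines at the medians. STAT4, NFKBIZ, EGR3, ETV3, MYB, KLF5, KDM6B and EZH2 are higher in every LPS library, and the other 12 genes are lower in every one.

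The largest falls joined genes of unlike function. UBXN10, a cofactor of the segregase p97 in cilia, ranged from 135 to 320 (median 273) in Control and from 0 to 7.16 (median 4.9) in LPS. RASD2, a small GTPase known from the striatum, had 227 to 1777 normalized counts (median 669) in Control and 5.95 to 28 (median 9.3) in LPS. FGD4, an exchange factor for CDC42, measured 197 to 1171 (median 701) in Control and 0.991 to 28 (median 18.1) in LPS. No LPS library of the 3 exceeded 28 normalized counts and no Control library was below 135, with log2 changes of -5.79 ± 0.51, -5.76 ± 0.73 and -5.47 ± 0.55. FUT7, the fucosyltransferase that completes selectin ligands, ranged from 386 to 1211 (median 588) in Control and from 7.39 to 38.4 (median 12.5) in LPS and fell by 5.33 on the log2 scale (± 0.35, limma adjusted p = 6.7e-13), but 58.7% of its exon bases overlapped other genes. The noncoding RNA gene LINC02185 had 213 to 398 normalized counts (median 318) in Control and 2.85 to 7.39 (median 3.98) in LPS and fell (-5.81 ± 0.30). CORO1A, DDIT4L and LMNA were among the 10 genes that lost most signal. CORO1A, the actin regulator coronin 1A, measured 27969 to 37630 (median 30372) in Control and 5343 to 6352 (median 5604) in LPS. DDIT4L, an inhibitor of the growth kinase mTORC1, ranged from 12233 to 32209 (median 27397) in Control and from 625 to 3556 (median 1508) in LPS. LMNA, the nuclear lamin A/C, had 18943 to 43932 normalized counts (median 26632) in Control and 6659 to 11619 (median 7389) in LPS. Each was lower in every LPS library (-2.45 ± 0.08, -4.01 ± 0.34 and -1.78 ± 0.24).

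Cell-cycle genes were lowered more often than raised. In the DNA replication list 9 of 43 tested members rose and 25 fell (median log2 change -0.75), or 3 and 31 on equal totals, and for mitosis 1 of 28 tested members rose and 14 fell (median log2 change -0.88). ORC1, a subunit of the origin recognition complex, measured 90.9 to 289 (median 143) in Control and 13.1 to 49.8 (median 27) in LPS. PRIM1, the catalytic primase subunit, ranged from 116 to 457 (median 139) in Control and from 19.1 to 49.8 (median 25.8) in LPS (21.6% of its exon bases shared). Their LPS values lay below all Control values (-2.35 ± 0.27 and -2.56 ± 0.28). AURKA, a spindle kinase, had 422 to 537 normalized counts (median 518) in Control and 38.2 to 97.4 (median 57.1) in LPS. CDC20, which activates the anaphase-promoting complex, measured 274 to 791 (median 342) in Control and 30.7 to 195 (median 60.5) in LPS. Both fell without overlap (-3.01 ± 0.15 and -2.54 ± 0.35), and E2F7, a repressor of replication genes, rose from a mean of 509 to a mean of 2329 (2.16 ± 0.19). SESN1, a p53 target that restrains mTORC1, ranged from 2613 to 5398 (median 3645) in Control and from 487 to 628 (median 583) in LPS and fell (-2.71 ± 0.14).

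Regulators of G protein signalling stood at both ends of their list, in which 11 of 24 tested members rose and 10 fell (median log2 change 0.22), or 7 and 14 on equal totals. RGS14 had 1215 to 1674 normalized counts (median 1455) in Control and 32.7 to 82.3 (median 55) in LPS. RGS16 measured 3571 to 4863 (median 4447) in Control and 45045 to 58954 (median 56238) in LPS. The first fell and the second rose in every LPS library (-4.73 ± 0.16 and 3.63 ± 0.14). RND1, a small GTPase that loosens adhesion, ranged from 1.05 to 5.68 (median 3.54) in Control and from 290 to 706 (median 423) in LPS and rose (6.75 ± 0.29). The exchange factors and activators of small GTPases named ARHGAP or ARHGEF were lowered in 33 and raised in 8 of 49 tested members (median log2 change -0.70), and zinc-finger genes named ZNF were lowered in 235 and raised in 110 of 434 (median -0.31, and 327 and 43 on equal totals). Long noncoding RNA genes named LINC had 105 lowered and 49 raised of 195 (median -0.64, and 124 and 33 on equal totals).

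Genes for making ribosomes rose nearly throughout, as 35 of 37 tested members rose and 2 fell (median log2 change 1.76), and 34 and 2 on equal totals. DDX21, a nucleolar helicase, had 1874 to 3096 normalized counts (median 2321) in Control and 14894 to 20118 (median 18759) in LPS. NOLC1, a nucleolar scaffold, measured 604 to 987 (median 699) in Control and 4099 to 5617 (median 4569) in LPS. DKC1, the pseudouridine synthase dyskerin, ranged from 1188 to 2098 (median 1344) in Control and from 5962 to 8511 (median 7388) in LPS. These rose in every LPS library (2.89 ± 0.11, 2.64 ± 0.11 and 2.29 ± 0.12), whereas UBTF, which opens ribosomal DNA for RNA polymerase I, was 1 of the 2 that fell, with means of 3290 in Control and 1549 in LPS (-1.08 ± 0.12). Of the aminoacyl-tRNA synthetases 16 of 19 tested members rose and 3 fell (median log2 change 0.79) (11 and 5 on equal totals), led by WARS1, the tryptophan enzyme, with means of 2312 in Control and 16293 in LPS (2.80 ± 0.11). For the proteasome the deposited scale and equal totals differed: 36 of 38 tested members rose and 2 fell (median log2 change 0.53), against 14 and 11.

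Survival genes rose alongside genes of cell death, since 21 of 31 tested members rose and 8 fell (median log2 change 0.85) (16 and 11 on equal totals). BIRC3, an inhibitor of apoptosis protein, had 15.6 to 110 normalized counts (median 77) in Control and 9944 to 12488 (median 11419) in LPS. CFLAR, the caspase-8 homologue FLIP, measured 916 to 1502 (median 1376) in Control and 21341 to 27583 (median 26590) in LPS. Each rose without overlap (7.78 ± 0.42 and 4.35 ± 0.12). CASP5, an inflammatory caspase that binds LPS in the cytosol, ranged from 10.4 to 40.7 (median 25.2) in Control and from 617 to 1618 (median 1055) in LPS. PMAIP1, the BH3-only protein NOXA, had 423 to 1293 normalized counts (median 918) in Control and 12724 to 19919 (median 16852) in LPS. Both were higher in every LPS library (5.43 ± 0.28 and 4.43 ± 0.28). CASP6, an executioner caspase, and APAF1, the core of the apoptosome, fell from means of 137 to a mean of 28.3 (-2.23 ± 0.10) and of 1325 to a mean of 359 (-1.85 ± 0.11).

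Feedback regulators of kinases and of messenger stability rose in most members, as 17 of 22 tested members rose and 3 fell (median log2 change 0.70) (11 and 7 on equal totals). DUSP8 measured 29.2 to 54.6 (median 38) in Control and 1099 to 1304 (median 1232) in LPS. DUSP5 ranged from 216 to 894 (median 464) in Control and from 5107 to 7396 (median 6555) in LPS. Both are phosphatases of mitogen-activated protein kinases, and both rose (4.88 ± 0.17 and 3.67 ± 0.27). DUSP7, a cytosolic phosphatase of ERK, had 5810 to 8370 normalized counts (median 6817) in Control and 571 to 1185 (median 797) in LPS and fell (-3.04 ± 0.13). ZC3H12A, the nuclease regnase-1 that degrades cytokine messengers, rose from a mean of 1031 to a mean of 13337 (3.70 ± 0.12), and ZFP36L1, which destabilizes AU-rich messengers, measured 8976 to 10745 (median 9267) in Control and 1270 to 2068 (median 1358) in LPS and fell (-2.65 ± 0.11). The host transcripts of 2 microRNAs that act on Toll-like receptor signalling, miR-155 and miR-146a, rose in every LPS library: MIR155HG ranged from 195 to 473 (median 308) in Control and from 2857 to 5997 (median 5276) in LPS (3.87 ± 0.27) and MIR3142HG had 11.5 to 60.6 normalized counts (median 35.2) in Control and 824 to 1216 (median 1127) in LPS (5.11 ± 0.26). These values are of the host genes and not of the mature microRNAs.

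Secreted proteases and matrix genes included large rises. PLAT, tissue plasminogen activator, measured 0.905 to 3.79 (median 3.08) in Control and 1104 to 1601 (median 1233) in LPS. TFPI2, a protease inhibitor, ranged from 87.8 to 1425 (median 616) in Control and from 16430 to 24659 (median 22198) in LPS. TNC, the matrix protein tenascin C, had 0 to 3.79 normalized counts (median 0.381) in Control and 189 to 346 (median 230) in LPS. All 3 were higher in every LPS library (8.60 ± 0.24, 5.73 ± 0.45 and 7.13 ± 0.39), TNC and PLAT from Control values of 3.79 or less. In the coagulation and plasminogen list 9 of 12 tested members rose and 2 fell (median log2 change 1.14) (7 and 3 on equal totals). Of the lysosomal genes 13 of 57 tested members rose and 24 fell (median log2 change -0.09), or 3 and 42 on equal totals. The lowered share, 42.1%, was close to the 40.6% of all tested genes, and the raised share, 22.8%, was below their 37.8%. LGMN, the asparaginyl endopeptidase legumain, measured 51.5 to 95.6 (median 59.7) in Control and 292 to 1258 (median 855) in LPS and rose (3.50 ± 0.28), and CTSC, which activates granule proteases, ranged from 13698 to 24623 (median 21534) in Control and from 6975 to 11343 (median 9730) in LPS and fell (-1.08 ± 0.15).

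Neighbouring genes sometimes changed together. Among tested protein-coding genes in chromosomal order, 30 runs of 3 or more were raised at least 4-fold and held 100 genes, and 9 runs were lowered at least 4-fold and held 27. Several runs were known gene clusters (the GBP, IFIT and OAS genes, and chemokines on chromosomes 4 and 17). The longest raised run joined TP63, P3H2, CLDN1, IL1RAP and MB21D2 on chromosome 3, with log2 changes of 2.95 to 5.65. Whether adjacency exceeds that of unrelated genes was not tested.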

How the data were processed

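RNA from poly-A selected libraries of PMA-treated THP-1 cells was sequenced by the authors. Per the submitters' processing notes, the tools included featureCounts 1.6.1, STAR and DESeq2 1.24.0, with R 3.6.0 and the hg38 build. How the counting treated strand, and with which annotation, is not stated. The deposited signal is a table of normalized read counts, 58381 entries for 24 libraries. Of these, 19595 entries without a gene name (0.986% of the values) were left out and 51 symbols with several entries were summed. The deposited values were whole multiples of 1 step per library, and 100% of values above 0 came out whole within 0.1 read, so reads could be recovered for a count test.

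The main test was limma 3.58.1 (R 4.3.3, empirical Bayes with trend) on log2 of the value plus a pseudocount of 1, with 4 group means over 24 libraries (20 residual degrees of freedom), which understates the change of low genes. Testing covered 13900 genes whose mean reached 10, with Benjamini-Hochberg adjustment over all of them and a call at an adjusted p under 0.05. On the recovered reads, edgeR 4.0.16 called 5263 genes raised and 5581 lowered, and DESeq2 1.42.0 called 5222 and 5662. Both are two-sided tests. The main test held no term for the letters A to F, so its p-values leave any pairing by letter out. Deviations from the group means correlated within each of the 6 same-letter LPS and Control pairs (Pearson r of 0.423, 0.458, 0.261, 0.252, 0.356 and 0.513 across genes, which are not independent). Letters A with B, C with D and E with F correlated about as strongly (0.244 to 0.416), and all other pairs of letters were below 0 (-0.399 to -0.04), so pairing by letter and by these 3 blocks of letters cannot be told apart. The 6 libraries of a group may therefore not be independent, and a fit with the 3 blocks as a term was not run.

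Alternatives covered the pseudocount, the filter, equal totals, the libraries fitted, the letter block, pairs of letters, both count tests and the leaving out of each library. Counting depth of 19675823 to 30107819 reads per library limits only genes with few reads. Members and gene lists were chosen with earlier results of these data known. Named genes were the 12 largest rises and falls without overlap and with a mean of at least 50, up to 4 raised and 4 lowered members and the most abundant uncalled member of each list, the 10 largest gains and losses, and the markers. SHMT2, TNFAIP3, IFIT1, CD274, HERC5, the genes with no Control read and the runs of neighbours were added after their values were seen. Some genes that this rule picks are not reported here. Positions and exon overlaps are from GENCODE 29 (GRCh38), in which 13872 tested symbols matched a single gene, and SOD2 did not. Promoters are from RefSeq (GRCh38.p14).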

Additional observations from a re-analysis of the deposited data

Results flagged for a closer look

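For 14 of 348 combinations of a named gene and a group, 1 of the 6 libraries stood apart from the other 5, its gap to the nearest being over Dixon's 95% critical value on the log2 scale, where chance alone marks about 1 in 20. All 14 were libraries of letter E (9) or F (5). LPS E held the lowest LPS value in 7 of them. These were ITGB8, with 10651 normalized counts against 13489 to 15039 in the other LPS libraries, NRP2, with 7566 against 8485 to 9082, and JUNB, with 15802 against 18975 to 20867. BHLHE40 (4227 against 4821 to 5103) and HIF1A (13667 against 15171 to 16116) were also lowest there. The interferon-induced genes IFIT1 (2632 against 4323 to 5451) and HERC5 (1889 against 3578 to 4162) were lowest there too.

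LPS F was highest in IL7R, at 15256 against 7256 to 9098, and in CD40, at 12134 against 9710 to 10185, and lowest in TFPI2, at 16430 against 21180 to 24659. Control E was highest in LPAR5, at 273.9 against 188.7 to 213.3, and in CD300LB, at 389.4 against 250.1 to 285.8. Control F was lowest in BHLHE40, at 203.6 against 353 to 485.8, and highest in HERC5, at 76.92 against 37.49 to 48.33. Every one of these genes kept its call and direction when each library was left out in turn.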

How the results depend on the processing

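The numbers of genes raised (5253), lowered (5639), raised at least 2-fold (2301) and lowered at least 2-fold (2778) stayed within 1.5 times under every alternative, except that on equal totals 3118 rose, 1433 rose at least 2-fold and 4462 fell at least 2-fold. The 8275 that fell on equal totals were within 1.5 times. By construction that scale lowers each gene by the growth of the summed signal. Leaving out 1 library at a time gave 5147 to 5217 raised, 5507 to 5598 lowered, 2267 to 2357 raised at least 2-fold and 2708 to 2828 lowered at least 2-fold. With the letter as a replicate block, 5551 rose and 5966 fell (2303 and 2783 at least 2-fold), and the block changed the call of none of the 174 genes tested by name. Within letters A and B, C and D, and E and F, 5091, 5182 and 4577 genes rose and 5236, 5579 and 4776 fell. With no filter on low values 5960 rose and 6353 fell. Of 10892 calls, 10763 were shared in direction with edgeR and 10782 with DESeq2, but only 8757 (80.4%) with the fit on equal totals. Among those 174 genes, 170 kept their direction and side of the threshold in all 25 alternatives. EEF1A1 reversed on equal totals, to -0.03, and HADHA, ITGB2 and SHMT2 became calls there. Within 100 bases before the start, in place of 250, the kappa B letters stood in 3.43% of the genes raised at least 4-fold and 0.669% of all tested, and the ISRE letters in 4.07% and 1.17%. Depth limits genes near 0 in one group, whose fold changes depend on the pseudocount.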

Other observations

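Counts for further groups, some with members described above, were as follows. Of the circadian clock genes, 12 rose and 3 fell of 19 tested (median log2 change 0.56, and 7 and 7 on equal totals), and of the unfolded protein and heat shock genes 17 rose and 6 fell of 31 tested (median log2 change 0.42, and 11 and 13 on equal totals). Kruppel-like factors had 9 raised and 6 lowered of 16 tested (median log2 change 0.31, and 6 and 8 on equal totals) and the MYC network with other bHLH factors 14 raised and 13 lowered of 32 tested (median log2 change 0.06, and 10 and 20 on equal totals). In the noncoding RNA list 22 rose and 3 fell of 31 tested (median log2 change 0.73, and 15 and 10 on equal totals). Among pentose phosphate genes, 6 rose and 2 fell of 8 tested (median log2 change 0.36, and 1 and 3 on equal totals), and among metallothioneins and carriers of zinc and copper, 4 rose and 4 fell of 12 tested (median log2 change -0.06, and 2 and 6 on equal totals). C-type lectins had 3 raised and 6 lowered of 12 tested (median log2 change -0.25, and 3 and 7 on equal totals), complement genes 3 raised and 2 lowered of 11 tested (median log2 change 0.15, and 3 and 4 on equal totals), MHC class II genes 4 raised and 3 lowered of 11 tested (median log2 change 0.03, and 3 and 6 on equal totals) and granule and S100 proteins 5 raised and 1 lowered of 17 tested (median log2 change 0.19, and 3 and 5 on equal totals).

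Repair genes leaned down: of the homologous recombination and Fanconi genes 4 rose and 11 fell of 22 tested (median log2 change -0.53, and 1 and 15 on equal totals). Of the CDK inhibitors and other growth-arrest genes 7 rose (36.8%) and 10 fell (52.6%) of 19 tested (median log2 change -0.47, and 6 and 11 on equal totals). The shares of all tested genes were 37.8% and 40.6%. By at least 2-fold, 6 growth-arrest genes rose and 6 fell. In the MS4A and tetraspanin family 6 rose and 11 fell of 18 tested (median log2 change -0.58, and 2 and 11 on equal totals), and in the matrix list 7 rose and 7 fell of 27 tested (median log2 change 0.04, and 6 and 12 on equal totals). Families taken by name were counted too. Cytosolic ribosomal protein genes had 43 raised and 2 lowered of 82 tested (median log2 change 0.24, and 6 and 49 on equal totals). Mitochondrial ribosomal protein genes had 30 raised and 23 lowered of 78 tested (median log2 change 0.07, and 13 and 53 on equal totals). On equal totals most members of both were lower, but so were 59.5% of all tested genes. TRIM genes had 19 raised and 16 lowered of 42 tested (median log2 change -0.03, and 11 and 26 on equal totals), SLC genes 62 raised and 104 lowered of 212 tested (median log2 change -0.21, and 44 and 139 on equal totals), USP genes 21 raised and 18 lowered of 46 tested (median log2 change -0.04, and 15 and 26 on equal totals) and KIF genes 6 raised and 15 lowered of 28 tested (median log2 change -0.58, and 3 and 20 on equal totals). Of 300 tested processed pseudogenes, 125 rose and 34 fell, and their reads may come from the parent genes. For 283 lincRNA genes the numbers were 83 and 134, and for 314 antisense genes, whose reads cannot be told from those of the opposite strand where strand was not used, 77 and 139.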
